A study of Mus musculus with 24 samples.

Results

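The genes examined here encode the enzymes and proteins that build triglyceride, hold it in droplets and load it into lipoproteins. They are the 10 rows of the liver and brain tables whose Ensembl identifiers map to Gpam, Agpat2, Lpin1, Lpin2, Dgat1, Dgat2, Mogat1, Thrsp, Plin2 and Mttp, out of 55469 genes in each table. The study deleted single phenylalanine tRNA genes in mice with a CRISPR guide and sequenced total RNA of liver and brain. There were 24 samples, 3 replicates of each of 4 genotypes in both tissues. The genotypes were WT and 3 homozygous deletions of 1 gene each. These are tRNA-Phe-1-1-/- mice, then tRNA-Phe-2-1-/- mice, and lastly tRNA-Phe-3-1-/- mice. All animals were male, on a C57BL/6N background, fed normal chow ad libitum and kept in a 12 h light and dark cycle. WT and mutant mice are described as matched for age, 10 weeks in the study's reporting, and for litter. The study also says that its experiments used mice of different litters. The same 3 WT samples of each tissue served for all 3 lines, so litter cannot be taken as matched between the groups. The mutants carry the deletion in the germline and so in every tissue, not in hepatocytes or neurons alone. The time of day at which tissue was taken and the feeding state at that moment are not given in the sources used here. The tRNA-Phe transcripts themselves are not analysed here, so the deletions were taken from the labels.

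Triglyceride is made on the endoplasmic reticulum by adding fatty acids to glycerol-3-phosphate in sequence. GPAM, an outer mitochondrial membrane acyltransferase, adds the first chain, AGPAT enzymes such as AGPAT2 add the second, lipins such as LPIN1 and LPIN2 remove the phosphate, and the diacylglycerol acyltransferases DGAT1 and DGAT2 add the last chain. MOGAT1 makes diacylglycerol from monoacylglycerol, THRSP is a lipogenic protein that rises with thyroid hormone and carbohydrate, PLIN2 coats the lipid droplets of hepatocytes, and MTTP moves triglyceride onto apolipoprotein B for secretion as very low density lipoprotein. The liver runs this pathway at a high rate after meals, whereas the brain stores little triglyceride.

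The files held between 32276896 and 51584522 reads in each liver and between 30365760 and 46225360 in each brain, counted over genes after dividing out the library scaling. Values below are normalised read counts, which are reads per gene divided by a scaling factor for each sample. A gene was tested if its mean over the 12 samples of a tissue was at least 10 normalised reads. A gene was called when the adjusted p of limma, with Benjamini-Hochberg adjustment over all genes tested, was under 0.05. Differences are given on the scale of log2(normalised count + 1) with their SE. A single comparison of 3 against 3 samples cannot reach a p below 0.1 in an exact permutation test, so only the model fitted across all genes was used. The hepatocyte markers Alb, Ttr, Apoa1, Tat and Cps1 summed to between 2456830 and 3112720 in WT livers and between 2614460 and 3178160 in tRNA-Phe-3-1-/- livers. They were lower without overlap in tRNA-Phe-1-1-/- livers, between 1858790 and 2416490, and in tRNA-Phe-2-1-/- livers, between 2014130 and 2264740, although 0 of the 5 genes passed the test in tRNA-Phe-1-1-/- liver against WT, with a median log2 difference of -0.21. The adipocyte list was low in liver, with sums between 164 and 469 and 1 of its 5 genes at 0 in every liver. The neuron list summed to between 112282 and 182093 in the 12 brains.

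All 10 genes were above the limit in liver, and 9 were in brain, where Mogat1 stood between 0 and 19.7 normalised reads. Levels can be compared between genes only per length, and were therefore divided by the length of each gene's merged exons. In WT liver Thrsp was the most abundant, at 4824 ± 3294 (SD, n = 3) normalised reads per kb. Gpam followed at 2375 ± 345, Dgat2 at 2303 ± 407, Plin2 at 1973 ± 318, Agpat2 at 1742 ± 279 and Mttp at 1683 ± 325 per kb. Neighbours in that order differed by less than the larger of their SDs. Lpin2 was lower at 710 ± 124, Lpin1 at 281 ± 128 and Dgat1 at 156 ± 16.2, and Mogat1 was lowest at 13.7 ± 8.59 per kb. In WT brain the leading genes were Gpam at 275 ± 14.5, Lpin2 at 258 ± 25.5, Dgat2 at 240 ± 37.0 and Thrsp at 200 ± 19.1 normalised reads per kb, and neighbours there differed by less than the larger SD except for Thrsp below Dgat2. Dgat1 stood at 127 ± 2.60, Lpin1 at 81.9 ± 6.96, Mttp at 41.7 ± 4.05, Plin2 at 24.9 ± 3.96 and Agpat2 at 8.81 ± 4.67 per kb. The liver and brain tables were normalised separately, so levels across the 2 tissues are set side by side only.

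In the livers of tRNA-Phe-1-1-/- mice the 10 genes did not move in a single direction. Gpam, Agpat2 and Plin2 were lower than in WT, Lpin1 was higher, and the other 6 genes did not pass the test. The 4 called members of 10 compare with 17.3% of the 15856 genes tested in that comparison. The members were chosen with earlier results of these data known, so this share and those below describe the set and do not test it. The groups did not overlap for 5 of the 10, the 4 called genes and Lpin2, against 34.8% of all genes. The median log2 difference of the 10 was -0.07, with -0.01 over all genes. In bulk tissue, fewer cells of a type and less RNA per cell cannot be told apart. The lower hepatocyte sum given above moved with this group and with tRNA-Phe-2-1-/- livers, and its part in the member values was not tested.

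**Figure D1:**
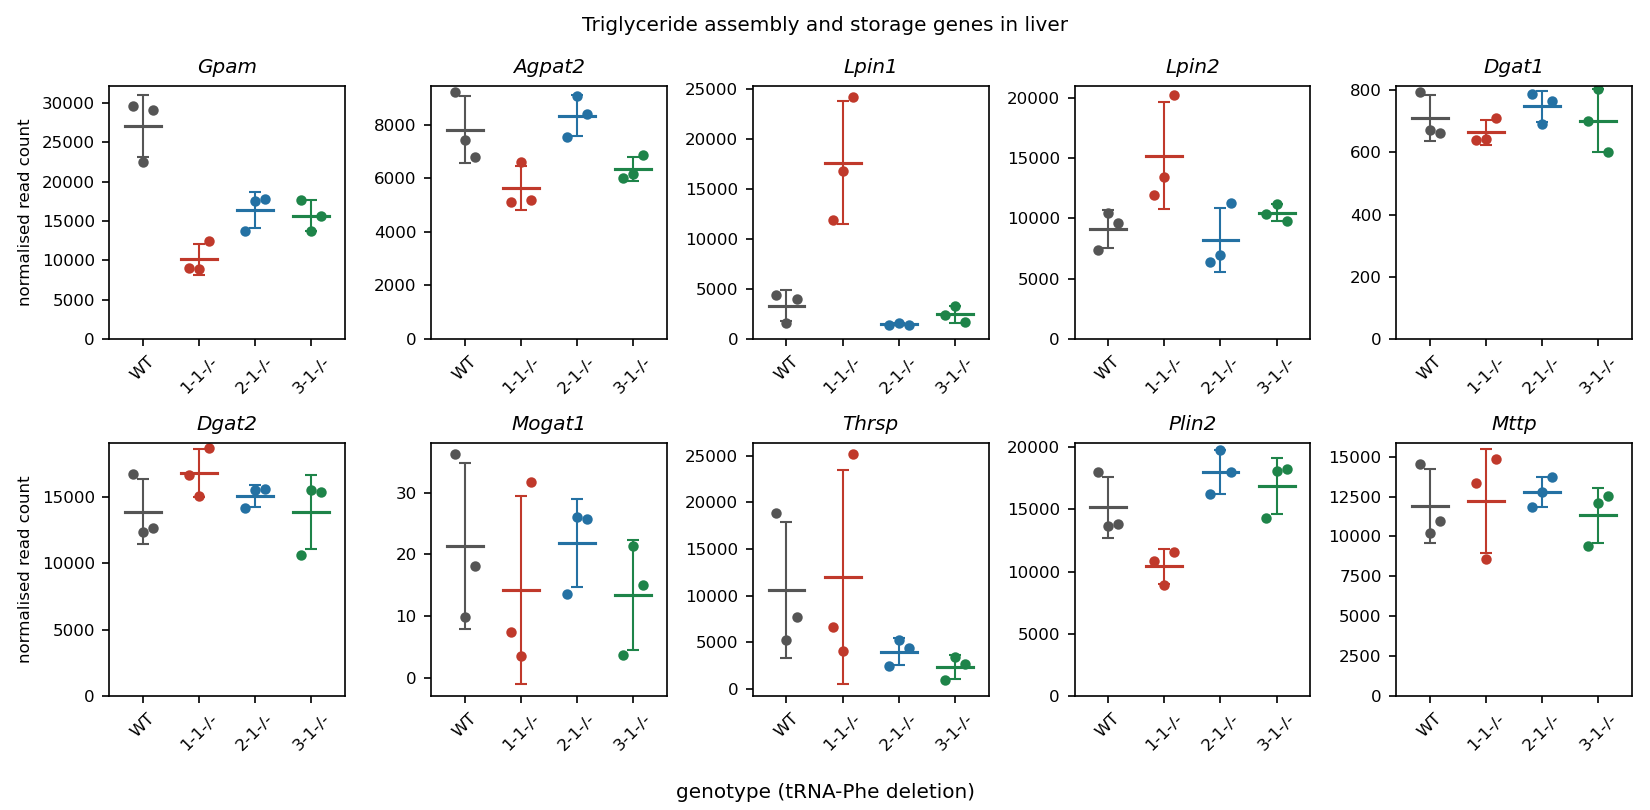
Normalised read counts of the 10 genes in each of 12 livers, by genotype, with points for single samples, a horizontal line for the group mean and bars for 1 SD. The 3 tRNA-Phe-1-1-/- livers sit below all WT livers for Gpam, Agpat2 and Plin2 and above them for Lpin1 and Lpin2, and 1 WT liver and 1 tRNA-Phe-1-1-/- liver stand high for Thrsp.

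The upstream sequences of the 4 genes called in tRNA-Phe-1-1-/- liver are shown so that the starts can be compared, since 3 of them fell and 1 rose. RefSeq (GRCm38.p6) promoter windows, 250 bases before to 50 bases after a start, matched 8 of the 10 genes with 11 starts. The windows were searched on both strands for CACGTG, the E-box read by clock factors and by SREBF1 and MLXIPL, for TTATGNAA, the D-box of DBP and TEF, for TCACNCCAC, a sterol regulatory element, and for CCAAT. These motifs do not overlap each other in the windows printed. Among all 32851 promoter windows 7.15% held the E-box, 3.38% the D-box, 1.24% the sterol element and 37.4% CCAAT. The 250 bases before each start are given 5′ to 3′ on the gene's strand, with a motif found in full within them in capitals.
Gpam, first start, chr19:55127239-55127488, minus strand: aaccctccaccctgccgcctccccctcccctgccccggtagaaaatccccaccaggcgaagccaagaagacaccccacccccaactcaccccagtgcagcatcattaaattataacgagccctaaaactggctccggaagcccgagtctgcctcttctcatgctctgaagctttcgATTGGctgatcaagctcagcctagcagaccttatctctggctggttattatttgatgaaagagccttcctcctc
Gpam, second start, chr19:55099478-55099727, minus strand: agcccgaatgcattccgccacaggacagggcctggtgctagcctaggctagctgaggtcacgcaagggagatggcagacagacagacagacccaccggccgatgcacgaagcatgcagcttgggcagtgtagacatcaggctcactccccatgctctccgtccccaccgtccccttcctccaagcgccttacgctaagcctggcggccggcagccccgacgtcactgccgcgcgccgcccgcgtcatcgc
Agpat2, chr2:26604418-26604667, minus strand: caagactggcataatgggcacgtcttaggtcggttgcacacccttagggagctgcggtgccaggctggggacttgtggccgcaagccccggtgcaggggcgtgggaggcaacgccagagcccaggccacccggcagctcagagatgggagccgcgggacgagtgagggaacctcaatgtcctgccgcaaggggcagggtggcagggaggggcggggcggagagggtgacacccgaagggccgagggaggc
Plin2, chr4:86670060-86670309, minus strand: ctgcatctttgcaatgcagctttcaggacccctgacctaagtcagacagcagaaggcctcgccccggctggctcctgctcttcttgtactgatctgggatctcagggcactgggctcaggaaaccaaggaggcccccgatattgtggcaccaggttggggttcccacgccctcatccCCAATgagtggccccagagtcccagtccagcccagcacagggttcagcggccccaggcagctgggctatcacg
Lpin1, chr12:16610967-16611216, minus strand: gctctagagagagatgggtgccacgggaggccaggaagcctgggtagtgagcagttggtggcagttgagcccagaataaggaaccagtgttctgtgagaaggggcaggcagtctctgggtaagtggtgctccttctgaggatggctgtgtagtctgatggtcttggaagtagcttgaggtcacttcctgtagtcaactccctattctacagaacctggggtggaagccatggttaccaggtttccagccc
The first Gpam window held CCAAT, read on the other strand as ATTGG, 74 bases before the start. The Plin2 window held CCAAT 73 bases before the start and an E-box that begins 4 bases before the start and runs across it, so that only its first letters are printed. The Agpat2, Lpin1 and second Gpam windows held 0 of these motifs. The Lpin1 window lies inside the gene, which runs from 16535669 to 16653903 and is read on the minus strand. The bases before its outer end at 16653903 were not searched. Among the other members Lpin2 had 3 starts. An E-box stood 9 bases before the first, and the window of the third held CCAAT at 233, 165 and 57 bases before. The window of the second Lpin2 start and that of Mttp held 0 of these motifs. Thrsp held CCAAT at 79 and 52 bases before its start, and the Mogat1 window held CCAAT after the start. A match is a run of letters and not a measured binding site.

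Gpam, on chromosome 19 from 55067635 to 55127319 (GRCm38.p6), encodes the acyltransferase of the first step. It was at 29606, 22525 and 29028 normalised reads in the WT livers and at 9036, 8874 and 12405 in tRNA-Phe-1-1-/- livers. It was at 13762, 17582 and 17758 in tRNA-Phe-2-1-/- and at 17606, 13654 and 15661 in tRNA-Phe-3-1-/- livers. Every WT liver was above every mutant liver, and the tRNA-Phe-1-1-/- livers were the lowest of all. Groups did not overlap with WT for 34.8% of all genes in tRNA-Phe-1-1-/-, 25.4% in tRNA-Phe-2-1-/- and 19.9% in tRNA-Phe-3-1-/- livers. The tRNA-Phe-1-1-/- level of Gpam was 0.372 times that of WT, a log2 difference of -1.43 ± 0.16 (adjusted p = 0.00031, limma). That call held in every alternative, with adjusted p up to 0.00522. The difference was -0.72 ± 0.16 in tRNA-Phe-2-1-/- (adjusted p = 0.1, limma) and -0.79 ± 0.16 in tRNA-Phe-3-1-/- (adjusted p = 0.0514, limma), neither of which passed the test over 3 against 3 samples. The mean of the 3 lines was lower than WT by -0.98 ± 0.13 on the log2 scale (adjusted p = 0.00589, limma), and Gpam alone of the 10 was called there, in a comparison with 4.04% of all genes called. Gpam was also lower in tRNA-Phe-1-1-/- than in tRNA-Phe-2-1-/- livers, at -0.70 ± 0.16 (adjusted p = 0.0149, limma), and than in tRNA-Phe-3-1-/- livers, at -0.64 ± 0.16 (adjusted p = 0.0225, limma). The first of those calls was lost without tRNA-Phe-1-1-/- A or B or without tRNA-Phe-2-1-/- B or C, with adjusted p up to 0.0659. The second was lost without tRNA-Phe-1-1-/- A or B or without tRNA-Phe-3-1-/- A or C, with adjusted p up to 0.0825, and with only these 2 groups in the fit, at 0.0676. The call of the mean of the 3 lines was lost without WT liver C, at -0.92 (adjusted p = 0.0641).

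Agpat2, on chromosome 2 from 26593057 to 26604417, adds the second fatty acid and makes phosphatidic acid. It was at 9233, 7433 and 6819 normalised reads in WT livers and at 5135, 6607 and 5188 in tRNA-Phe-1-1-/- livers. The highest tRNA-Phe-1-1-/- liver lay just under the lowest WT liver. The level was 0.722 times that of WT, a log2 difference of -0.47 ± 0.13 (adjusted p = 0.0299, limma). The call did not survive leaving out WT A, WT B, tRNA-Phe-1-1-/- A or tRNA-Phe-1-1-/- C, with adjusted p of 0.0944, 0.0598, 0.109 and 0.0817. It was also lost with quantile normalisation, at 0.0636, without the variance trend, at 0.0549, and with only the groups compared in the fit, at 0.0864. Agpat2 was at 7549, 9081 and 8399 in tRNA-Phe-2-1-/- livers, above all 3 tRNA-Phe-1-1-/- livers, and that difference was -0.57 ± 0.13 (adjusted p = 0.014, limma), lost without tRNA-Phe-1-1-/- A at 0.0557 or tRNA-Phe-2-1-/- B at 0.0661. Between those 2 lines 38% of all genes did not overlap. Agpat2 was at 6001, 6182 and 6863 in tRNA-Phe-3-1-/- livers, which overlapped with tRNA-Phe-1-1-/-.

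Lpin1, on chromosome 12 from 16535669 to 16653903, encodes a phosphatidate phosphatase that also acts with transcription factors in the nucleus. It was at 4448, 1611 and 3975 normalised reads in WT livers and at 11936, 16834 and 24180 in tRNA-Phe-1-1-/- livers. The lowest of the latter was above every other liver of the series. The level was 5.54 times that of WT, a log2 difference of 2.47 ± 0.37 (adjusted p = 0.00127, limma), and the call held in all 23 alternatives, with adjusted p up to 0.0137. In the tRNA-Phe-2-1-/- livers it was at 1429, 1610 and 1393, all just below the lowest WT liver. That difference of -1.05 ± 0.37 did not pass the test (adjusted p = 0.235, limma), and 25.4% of all genes did not overlap in that comparison. The tRNA-Phe-3-1-/- livers, at 2352, 3323 and 1705, overlapped with WT. Lpin1 in tRNA-Phe-1-1-/- was higher than in tRNA-Phe-2-1-/- by 3.52 ± 0.37 (adjusted p = 0.000229, limma) and than in tRNA-Phe-3-1-/- by 2.84 ± 0.37 (adjusted p = 0.00076, limma).

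Lpin2, on chromosome 17 from 71183532 to 71249818, encodes the lipin most prominent in liver. It was at 7330, 10396 and 9587 normalised reads in WT livers and at 11908, 13425 and 20220 in tRNA-Phe-1-1-/- livers. These groups did not overlap, and the difference of 0.72 ± 0.23 missed the threshold (adjusted p = 0.0542, limma). The adjusted p over the alternatives ran from 0.0148 to 0.161. Lpin2 was at 6409, 6918 and 11275 in tRNA-Phe-2-1-/- and at 10350, 11197 and 9791 in tRNA-Phe-3-1-/- livers. It was higher in tRNA-Phe-1-1-/- than in tRNA-Phe-2-1-/- livers by 0.90 ± 0.23 (adjusted p = 0.0235, limma), and this call was lost without tRNA-Phe-1-1-/- C, tRNA-Phe-2-1-/- A or tRNA-Phe-2-1-/- B, at adjusted p of 0.0633, 0.0824 and 0.0974, and with only these groups in the fit, at 0.0687.

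The enzymes of the last step passed the test in none of the liver comparisons. Dgat1, on chromosome 15 from 76502012 to 76512021, lay between 601 and 803 normalised reads in all 12 livers, and its difference in tRNA-Phe-1-1-/- was -0.09 ± 0.12 (adjusted p = 0.648, limma). Dgat2, on chromosome 7 from 99153663 to 99182713, lay between 10638 and 18672, and its difference was 0.28 ± 0.16 (adjusted p = 0.251, limma). The 95% interval of the Dgat1 difference ran from -0.35 to 0.17 and that of Dgat2 from -0.07 to 0.63. In tRNA-Phe-2-1-/- livers the differences from WT were 0.08 ± 0.12 for Dgat1 and 0.13 ± 0.16 for Dgat2, and in tRNA-Phe-3-1-/- livers they were -0.02 ± 0.12 and -0.01 ± 0.16. Mogat1, on chromosome 1 from 78511060 to 78606964, was scarce at 3.5 to 36.2 normalised reads. It was at 21.4 ± 13.4 (SD, n = 3) in WT and 14.3 ± 15.3 in tRNA-Phe-1-1-/- livers, and the 95% interval of that difference ran from -2.55 to 0.81. Its differences from WT were 0.15 in tRNA-Phe-2-1-/- and -0.72 in tRNA-Phe-3-1-/- livers (SE 0.77).

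Thrsp, on chromosome 7 from 97412933 to 97417550, had the widest spread of the abundant members. It was at 18836, 5265 and 7693 normalised reads in WT livers and at 6688, 4056 and 25116 in tRNA-Phe-1-1-/- livers, so that liver WT A and liver tRNA-Phe-1-1-/- C stood far above the rest of their groups. It was at 2414, 5228 and 4391 in tRNA-Phe-2-1-/- and at 943, 3423 and 2652 in tRNA-Phe-3-1-/- livers, all of them below the lowest WT liver. The differences from WT were -1.26 ± 0.69 (adjusted p = 0.413, limma) and -2.16 ± 0.69 (adjusted p = 0.155, limma), and neither passed the test. In these 2 comparisons 25.4% and 19.9% of all genes did not overlap with WT. The tRNA-Phe-1-1-/- livers stood above the tRNA-Phe-3-1-/- livers without overlap, where 31.8% of all genes did not overlap in either direction. The Thrsp difference of 2.10 ± 0.69 (adjusted p = 0.0579, limma) missed the threshold. Over the alternatives edgeR, DESeq2 and quantile normalisation called it, at adjusted p of 0.0453, 0.0184 and 0.0458, as did the fit without tRNA-Phe-1-1-/- B, at 0.0333.

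Plin2, on chromosome 4 from 86626910 to 86670217, tracks the amount of stored lipid in many cells. It was at 17981, 13671 and 13834 normalised reads in WT livers and at 10823, 8889 and 11613 in tRNA-Phe-1-1-/- livers. It was at 16247, 19796 and 18039 in tRNA-Phe-2-1-/- and at 14289, 18094 and 18290 in tRNA-Phe-3-1-/- livers. The 3 tRNA-Phe-1-1-/- livers were the lowest of the 12, and the livers of the other lines overlapped with WT. The level in tRNA-Phe-1-1-/- was 0.69 times that of WT, a log2 difference of -0.54 ± 0.14 (adjusted p = 0.0269, limma). Its difference from tRNA-Phe-2-1-/- was -0.79 ± 0.14 (adjusted p = 0.00444, limma) and that from tRNA-Phe-3-1-/- was -0.69 ± 0.14 (adjusted p = 0.00905, limma). Against WT the call was lost without WT A, tRNA-Phe-1-1-/- A or tRNA-Phe-1-1-/- B, at adjusted p of 0.0855, 0.06 and 0.0802, and with only the groups compared in the fit, at 0.0605.

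Mttp, on chromosome 3 from 138089855 to 138143418, lay between 8578 and 14834 normalised reads in all livers. Its differences from WT were 0.02 ± 0.20 in tRNA-Phe-1-1-/-, 0.12 ± 0.20 in tRNA-Phe-2-1-/- and -0.07 ± 0.20 in tRNA-Phe-3-1-/-, with adjusted p of 0.962, 0.817 and 0.904 (limma). The 4 genotypes overlapped.

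In the livers of tRNA-Phe-2-1-/- mice 0 of the 10 genes were called, in a comparison that called 0.132% of all genes. At an unadjusted p under 0.05 there were 2, Gpam and Lpin1, against 14.9% of all genes. In tRNA-Phe-3-1-/- livers 0 of the 10 were called, where 0.883% of all genes were. At an unadjusted p under 0.05 there were 3, Gpam, Agpat2 and Thrsp, against 16.1% of all genes. edgeR called 0 in both comparisons. DESeq2 called 2, Gpam and Lpin1, in the first, where it called 3.55% of genes, and 1, Gpam, in the second, where it called 5.29%. The lines also differed from each other. In tRNA-Phe-1-1-/- livers set against tRNA-Phe-2-1-/- livers 5 of the 10 were called, against 15.9% of all genes, namely Gpam, Agpat2 and Plin2 lower and Lpin1 and Lpin2 higher in tRNA-Phe-1-1-/-. Against tRNA-Phe-3-1-/- livers 3 of the 10 were called, against 16.1%, namely Gpam and Plin2 lower and Lpin1 higher. In tRNA-Phe-2-1-/- livers set against tRNA-Phe-3-1-/- livers 0 of the 10 and 0% of all genes were called, with 1 member, Agpat2, and 6.68% of all genes at an unadjusted p under 0.05, and DESeq2 also called 0 members. An F-test over the 4 genotypes called 4 of the 10, Gpam, Agpat2, Lpin1 and Plin2, against 17% of all genes. With the replicate letter as a block it called Gpam, Lpin1, Lpin2 and Plin2, so that Agpat2 was lost and Lpin2 gained. DESeq2 called 6 there, the 4 and also Lpin2 and Thrsp, against 29% of genes. These comparisons share groups and are not independent of each other.

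**Figure D2:**
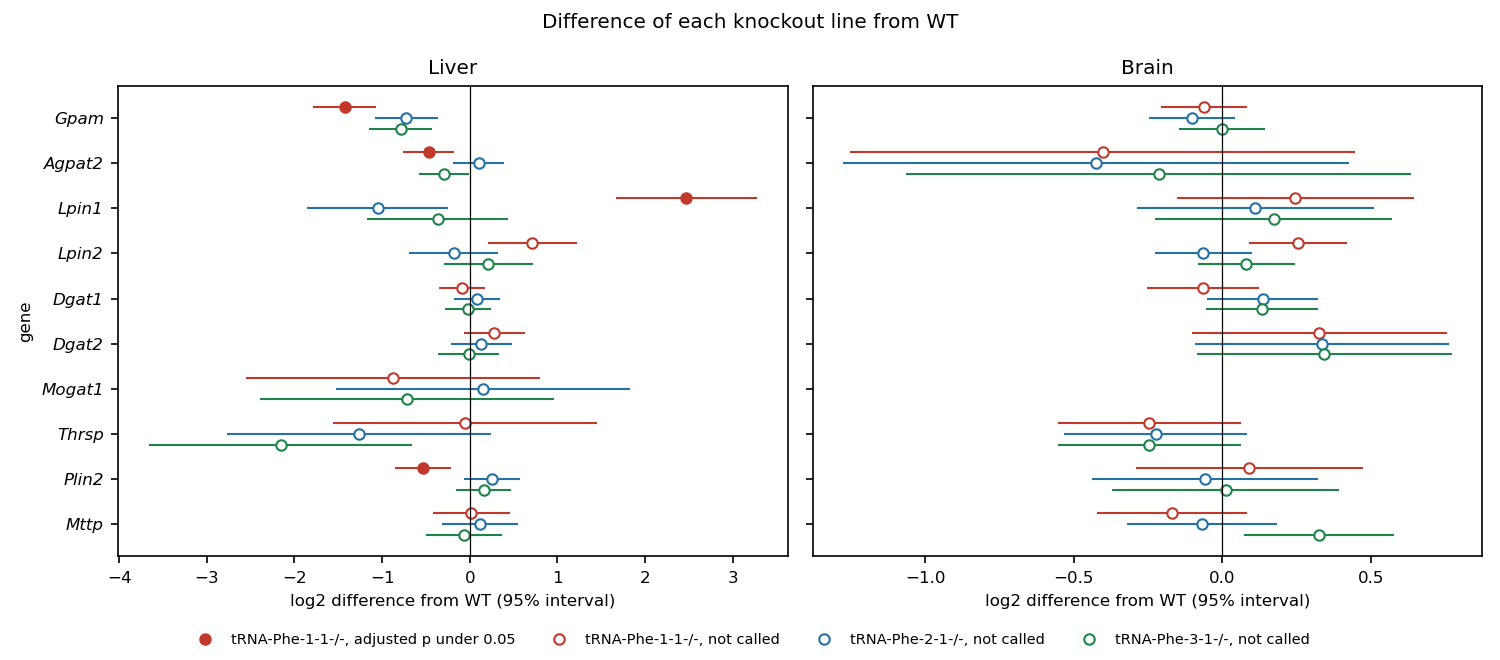
Log2 difference of each knockout line from WT for the 10 genes in liver and brain, with 95% intervals, in which filled points passed the test and open points did not. The filled points are Gpam, Agpat2, Lpin1 and Plin2 in tRNA-Phe-1-1-/- liver, and the brain panel, which has a narrower axis, holds open points only.

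In brain none of the 9 genes tested was called in any of the 8 comparisons by limma or by edgeR. The share of all 19228 genes called was 1.05% in tRNA-Phe-1-1-/- against WT and 0% in tRNA-Phe-2-1-/-, in tRNA-Phe-3-1-/- and in the mean of the lines against WT. For tRNA-Phe-1-1-/- brains it was 0.53% against the tRNA-Phe-2-1-/- line and 2.11% against the tRNA-Phe-3-1-/- line, it was 0% between the latter lines, and 0.634% over the 4 genotypes. At an unadjusted p under 0.05 there was 1 member in tRNA-Phe-1-1-/- against WT, Lpin2, where 15.9% of all genes passed, and 1 in tRNA-Phe-3-1-/-, Mttp, where 12.3% did. There were 0 in tRNA-Phe-2-1-/-, with 5.57% of all genes, and 0 in the mean of the lines, with 9.52%. With tRNA-Phe-1-1-/- brains set against the tRNA-Phe-2-1-/- line there were 2, Lpin2 and Dgat1, with 13.7% of all genes. With them set against the tRNA-Phe-3-1-/- line there were 3, Lpin2, Dgat1 and Mttp, with 19.5%. Between the remaining lines there was 1, Mttp, with 9.93%, and over the 4 genotypes there were 2, Lpin2 and Mttp, with 17.6%. DESeq2 called more genes in brain. It called Lpin2 in tRNA-Phe-1-1-/- against WT, with 4.66% of genes, and against tRNA-Phe-2-1-/-, with 3.89%. It called Mttp in tRNA-Phe-1-1-/- against tRNA-Phe-3-1-/-, with 6.92%, and both over the 4 genotypes, with 8.41%.

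Gpam in brain was between 2824 and 3293 normalised reads in all 12 samples, and its difference in tRNA-Phe-1-1-/- was -0.06 ± 0.07 (adjusted p = 0.689, limma). Lpin1 was between 888 and 1514, with a difference of 0.24 ± 0.18 (adjusted p = 0.55, limma). Lpin2 was at 3345, 2958 and 3607 in WT brains and at 4019, 4003 and 3771 in tRNA-Phe-1-1-/- brains. These did not overlap, as for 25.2% of all genes, and the difference of 0.25 ± 0.07 did not pass the test (adjusted p = 0.132, limma). Mttp was at 321, 300.2 and 264 in WT brains and at 359, 342 and 408 in tRNA-Phe-3-1-/- brains. The difference of 0.32 ± 0.12 did not pass the test (adjusted p = 0.299, limma), nor did that of tRNA-Phe-1-1-/- from tRNA-Phe-3-1-/-, at -0.49 ± 0.12 (adjusted p = 0.054, limma). The choroid plexus markers Ttr, Kl, Folr1, Kcnj13 and Otx2 varied widely between brains, summing to between 591 and 12892 in WT brains, 183 and 226 in tRNA-Phe-1-1-/-, 136 and 52068 in tRNA-Phe-2-1-/- and 165 and 26108 in tRNA-Phe-3-1-/-. The oligodendrocyte list summed to between 40865 and 77818.5 in tRNA-Phe-1-1-/- brains, below WT brains at 107815 to 128608. Its median log2 difference was -0.98, and 0 of its 5 genes were called. The sums of the other lines overlapped with WT. The part of these cell types in the brain values was not tested. Dgat1, Dgat2, Thrsp, Plin2 and Agpat2 had adjusted p from 0.421 to 0.843 in tRNA-Phe-1-1-/- brain.

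A fit over both tissues, added after the data were seen, tested whether the effect of a deletion differed between liver and brain. In tRNA-Phe-1-1-/- mice it called 2 of the 9 members, Gpam and Lpin1, against 6.94% of 14456 genes. In tRNA-Phe-2-1-/- mice it called 0 members and 0.0346% of genes, and in tRNA-Phe-3-1-/- mice 0 members and 0.45% of genes.

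Other genes of the pathway were read in tRNA-Phe-1-1-/- liver against WT from lists chosen with earlier results of these data known. Of 9 other assembly enzymes tested, 0 rose and 1 fell, namely Gk, the glycerol kinase, at -0.44 ± 0.10 (adjusted p = 0.0105, limma). The list median was 0.00, with -0.01 over all genes. The isoenzymes of the lowered members were not called, with Gpat3 at 0.00 ± 0.33, Gpat4 at 0.49 ± 0.16 (adjusted p = 0.0608) and Agpat1 at 0.52 ± 0.17 (adjusted p = 0.057, limma). Of 10 droplet proteins tested, 1 rose and 2 fell, with a median of -0.13. Plin4 rose by 1.85 ± 0.54 (adjusted p = 0.0358), and Cideb, which enlarges droplets and aids lipoprotein lipidation, and Plin3 fell, at -0.50 ± 0.08 (adjusted p = 0.00189) and -0.30 ± 0.06 (adjusted p = 0.00861, limma). Of 5 lipolysis genes, Pnpla2, the adipose triglyceride lipase, rose by 0.44 ± 0.12 (adjusted p = 0.024), and Pnpla3, a droplet protein induced by feeding, was lower at -3.21 ± 0.68 (adjusted p = 0.00858, limma). Of 5 lipoprotein export genes, Apob, Apoc3, Tm6sf2, P4hb and Sar1b, 0 were called, with a median of -0.02, and the lowest adjusted p was 0.306 for Tm6sf2.

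Among 6 regulators 1 rose and 3 fell, with a median of -0.86. The lowered genes were Srebf1, the insulin-driven activator of lipogenesis, at -0.96 ± 0.14 (adjusted p = 0.000977), Mlxipl, the carbohydrate response factor, at -1.06 ± 0.19 (adjusted p = 0.00312), and Pparg, which promotes lipid storage, at -1.37 ± 0.27 (adjusted p = 0.0055, limma). Nr1h3, the liver X receptor alpha, rose by 0.23 ± 0.07 (adjusted p = 0.047), and Ppara at 0.40 ± 0.31 and Ppargc1a at -0.76 ± 0.36 were not called. In tRNA-Phe-3-1-/- liver Srebf1 and Mlxipl were also lower than in WT, at -0.78 ± 0.14 (adjusted p = 0.0328) and -0.98 ± 0.19 (adjusted p = 0.0387, limma). Pnpla3 stood below the WT range in the livers of all 3 lines, at 216 to 591 normalised reads in WT, 12.2 to 86.0 in tRNA-Phe-1-1-/-, 12.8 to 62.0 in tRNA-Phe-2-1-/- and 25.1 to 43.9 in tRNA-Phe-3-1-/- livers. It was called in tRNA-Phe-3-1-/- at -3.39 ± 0.68 (adjusted p = 0.0465) and in the mean of the lines at -3.38 ± 0.56 (adjusted p = 0.0105), and in tRNA-Phe-2-1-/- the value was -3.55 ± 0.68 (adjusted p = 0.0684, limma). Cideb was lower in tRNA-Phe-3-1-/- liver at -0.43 ± 0.08 (adjusted p = 0.0359) and in tRNA-Phe-2-1-/- liver at -0.51 ± 0.08 (adjusted p = 0.035, limma).

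**Figure D3:**
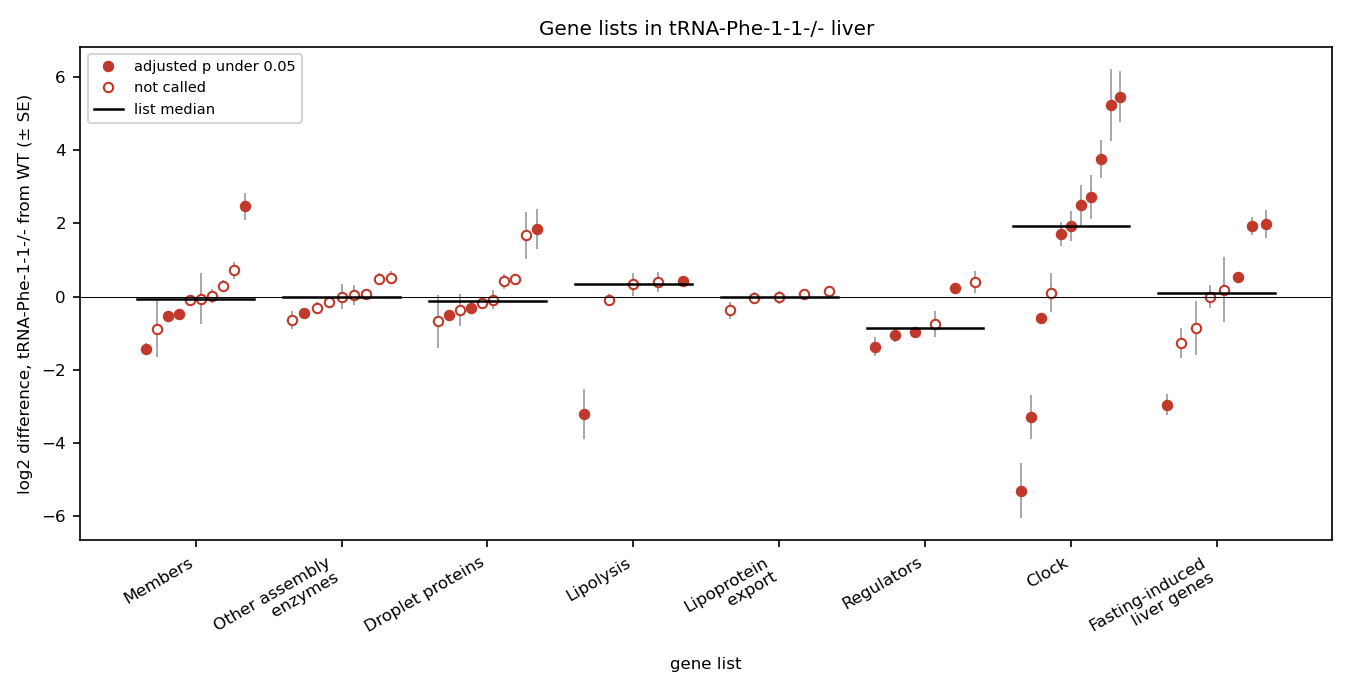
Log2 difference of tRNA-Phe-1-1-/- liver from WT for each gene tested in 8 lists, with bars of 1 SE, filled points for genes that passed the test and a black line at each list's median. The clock list spreads furthest in both directions, the lipoprotein export list holds open points only, and the regulators have a median of -0.86.

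Lpin1 is known to follow the circadian clock and fasting, so both lists were read beside it. Of 11 clock genes, 7 rose and 3 fell in tRNA-Phe-1-1-/- liver, with a median of 1.93. Ciart rose by 5.46 ± 0.70 (adjusted p = 0.000605) and Per1 by 3.76 ± 0.52 (adjusted p = 0.000876, limma). Npas2, a partner of BMAL1, was lower at -5.30 ± 0.74 (adjusted p = 0.000915) and Bmal1 at -3.29 ± 0.59 (adjusted p = 0.00374, limma). Per1, a repressor of the clock, was at 85.0, 31.6 and 119 normalised reads in WT livers and at 740, 1047 and 1080 in tRNA-Phe-1-1-/- livers. For Per1 the tRNA-Phe-2-1-/- livers, at 50.5, 38.1 and 32.3, and the tRNA-Phe-3-1-/- livers, at 49.0, 120.4 and 28.2, stayed in the WT range or close to it. Per1 was also the liver gene most like Lpin1, with a Pearson r of 0.98 over the 12 livers. The summed clock list stood higher in tRNA-Phe-3-1-/- livers too, between 11413 and 18454 normalised reads, with 8939 to 11384 in WT. Its median difference from WT there was 0.93, with 0.01 over all genes, and 0 of its 11 genes were called. In tRNA-Phe-2-1-/- livers that median was -0.02, with 0 called. With the tRNA-Phe-3-1-/- line as the reference, 3 clock genes were called higher in tRNA-Phe-1-1-/- livers and 0 lower.

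Dbp, a clock output, was picked after its values were seen. Dbp, a D-box factor, was at 67.4, 28.7 and 67.5 normalised reads in WT, at 2776, 853 and 3069 in tRNA-Phe-1-1-/- and at 170, 2173 and 1343 in tRNA-Phe-3-1-/- livers. The last 2 groups overlapped for Dbp. Of the 8 fasting-induced liver genes, 3 rose and 1 fell in tRNA-Phe-1-1-/- liver, with a median of 0.09. Pck1, a gluconeogenic enzyme, rose by 1.93 ± 0.25 (adjusted p = 0.000582), Cpt1a by 0.54 ± 0.12 (adjusted p = 0.00921) and Angptl4 by 1.99 ± 0.39 (adjusted p = 0.00562, limma), while Pdk4, which fasting raises, was lower at -2.95 ± 0.30 (adjusted p = 0.000163, limma). Of the same 8 genes, 1 rose and 1 fell in tRNA-Phe-3-1-/- liver, where 0.883% of all genes were called, and 0 were called in tRNA-Phe-2-1-/- liver. The mean of the lines had 3 higher and 1 lower, where 4.04% of all genes were called. In brain, where 0 members were called by limma, Per2 rose by 1.00 ± 0.16 (adjusted p = 0.0202), Plin4 by 3.25 ± 0.39 (adjusted p = 0.0107) and Angptl4 by 1.42 ± 0.24 (adjusted p = 0.0246, limma) in tRNA-Phe-1-1-/- mice. Of the 11 clock genes 2 were called higher there and 0 lower, with a median of 0.25. The clock list summed to between 33052 and 35674 in those brains and between 27925 and 30265 in WT brains. The part of clock phase and of feeding state in the values of Lpin1, Gpam, Agpat2 and Plin2 was not tested, and a difference in the hour of collection between groups cannot be told apart from genotype.

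**Figure D4:**
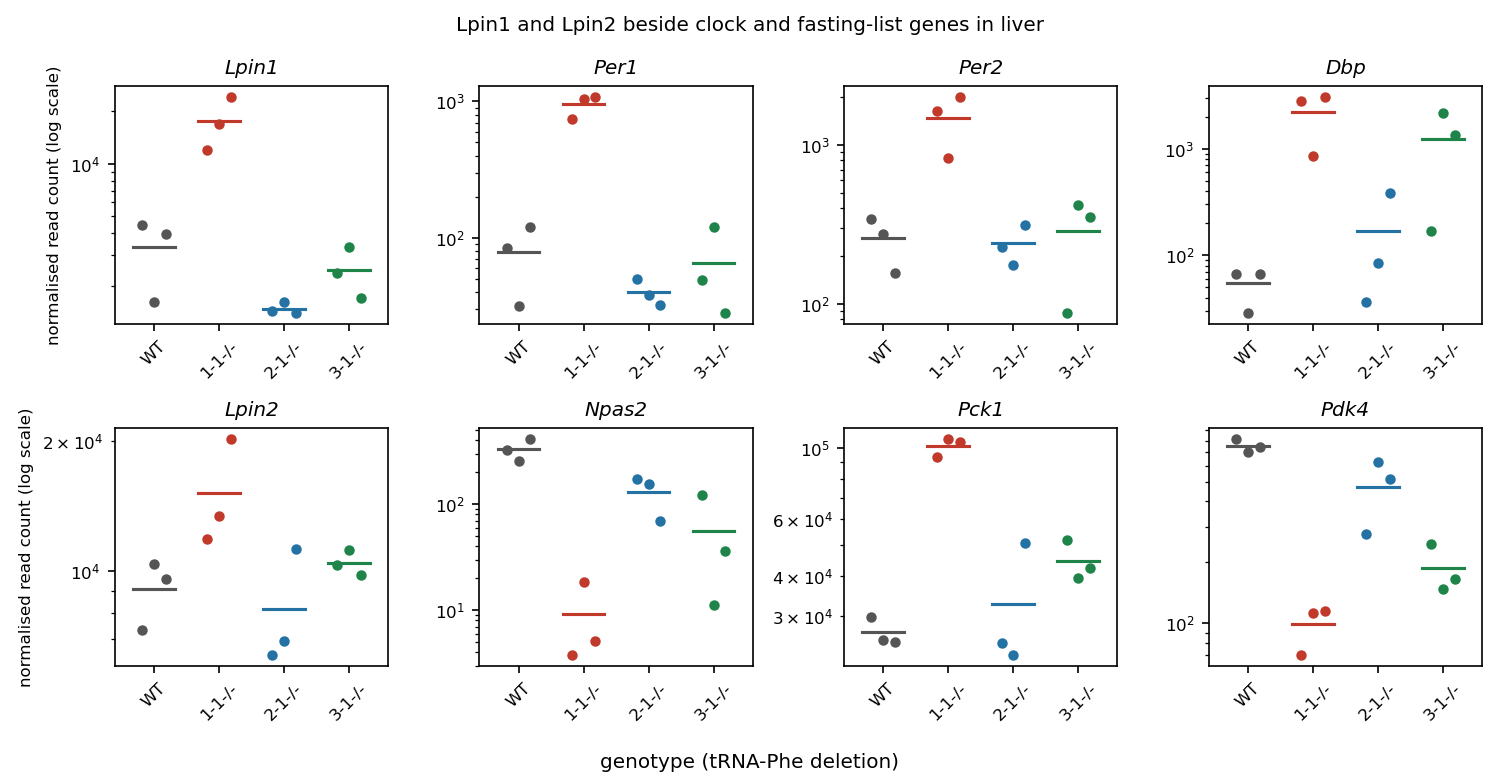
Normalised read counts in 12 livers, on log axes, of Lpin1 and Lpin2 beside the clock genes Per1, Per2, Dbp and Npas2 and the fasting-list genes Pck1 and Pdk4, with points for samples and lines for group means. Lpin1, Per1 and Pck1 set the 3 tRNA-Phe-1-1-/- livers apart from the other 9, and Dbp is also high in 2 tRNA-Phe-3-1-/- livers.

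In liver, red cell markers moved with the same group. The erythroid genes Hbb-bs, Hbb-bt, Hba-a1, Hba-a2 and Alas2 summed to between 19732 and 26031 in WT livers and between 11566 and 13840 in tRNA-Phe-1-1-/- livers, and 4 of 5 were called lower. The sums in tRNA-Phe-1-1-/- brains, 7588 to 9630, were below those of WT brains, 15395 to 28255, with 0 of 5 genes called. Those of tRNA-Phe-2-1-/- brains ran from 6610 to 15616. Of the Kupffer cell list 0 of 5 were called and of the stellate cell list 1 of 5, higher. The part of blood content in the liver values was not tested.

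Across the 12 livers some members varied together. Mogat1 and Mttp had a Pearson r of 0.84, Dgat2 and Mttp of 0.74, and Lpin1 and Lpin2 of 0.72. Lpin1 and Plin2 had an r of -0.79 and Agpat2 and Lpin2 of -0.73, and the median of all pairs was 0.24. The 12 points share their library scaling and include the differences between genotypes. The gene most like Gpam was Tlcd1 with an r of 0.97, followed by Dixdc1 at 0.96. The genes most like Plin2 were Pex16, a peroxisome protein, and Rab5b, both at 0.97, and the second most like Lpin1 was Mknk2, a kinase of translation initiation, at 0.97. Elovl6, a fatty acid elongase, was most like Thrsp at 0.93, followed by Slc25a44 at 0.92. Pygl and Khk, which act on glycogen and fructose, were most like Mogat1 at 0.94 and 0.93. Ap2a2 was second for Agpat2 at 0.90, Ttc27 second for Lpin2 at 0.91, Pqbp1 first for Dgat1 at 0.94, Bltp3a first for Dgat2 at 0.95 and Mmp15 first for Mttp at 0.96.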

How the data were processed

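Total RNA of liver and brain pieces was sequenced by the authors. Reads were trimmed (Trim Galore, cutadapt), aligned with STAR to GRCm38.p6, quantified with Salmon and scaled with DESeq2 in each tissue. The deposited values are normalised read counts, a signal per gene divided by 1 size factor per sample, and 100% were whole reads within 0.01 when multiplied back. Columns of the authors' own comparisons (mean, log2 fold change, error, s-value) were not used.

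Symbols matched 93.2% of Ensembl identifiers. The main test was limma 3.58.1 (R 4.3.3) on log2(normalised count + 1) with a variance trend over the 12 samples of a tissue, for genes with a mean of at least 10, tested on simulated data before use. Alternatives were edgeR 4.0.16 and DESeq2 1.42.0 on the recovered reads, other pseudocounts, filters and scalings, a replicate block and leaving out each sample. All 10 members were read in every comparison, and those not given a value there are given by counts. Of each pathway list up to 4 called genes of lowest adjusted p are named for tRNA-Phe-1-1-/- liver and up to 2 elsewhere, or the lowest gene where none was called, with the liver genes (mean of at least 50) most correlated with each member. Other genes given with values (isoenzymes, uncalled regulators, Dbp) were chosen after their values were seen. Members and lists were chosen with earlier results of these data known. RNA came, per the study, from at least 3 WT and 3 mutant mice. Replicates differed by more than sampling noise (chi-square per degree of freedom of at least 13.9), so none was counted as a duplicate. Replicate letters were not read as pairs. Brains of tRNA-Phe-2-1-/- mice deviated together with the same-letter brains of tRNA-Phe-3-1-/- mice (r of 0.13, 0.21 and 0.49). Brain A of the former also went with brain B of the latter at 0.26, and B with A at 0.14, so for A and B the pattern was not particular to the letter. That comparison had 0 members called with or without the block.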

Additional observations from a re-analysis of the deposited data

Results flagged for a closer look

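The effect of the tRNA-Phe-1-1 deletion differed between liver and brain for 2 of the 9 members tested in both tissues, in a limma fit over all 24 samples that was added after the data were seen and that called 6.94% of 14456 genes. For Gpam the log2 difference from WT was -1.43 in liver and -0.06 in brain, and the liver effect minus the brain effect was -1.37 ± 0.18 (adjusted p = 0.000135, limma), with all 3 mutant livers below every WT liver. For Lpin1 the differences were 2.47 and 0.24, and liver minus brain was 2.23 ± 0.44 (adjusted p = 0.00474, limma), with all 3 mutant livers above every WT liver. With each sample left out in turn, the Gpam value ran from -1.52 to -1.28 and that of Lpin1 from 1.76 to 2.50, and both passed the test each time. For the other 7 genes the difference between tissues was not called, the closest being Plin2 at -0.63 ± 0.22 (adjusted p = 0.0983, limma). In tRNA-Phe-3-1-/- mice Gpam gave -0.79 ± 0.18 (adjusted p = 0.0548, limma), where 0.45% of genes were called, and in tRNA-Phe-2-1-/- mice -0.62 ± 0.18 (adjusted p = 0.247, limma), where 0.0346% were. The labels do not tie livers to brains of the same animal, and the fit treats the samples as independent.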

How the results depend on the processing

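Over the alternatives, 323 values of called members kept their direction and call, 27 lost the call and none changed direction, while 21 values of uncalled members became called. In tRNA-Phe-1-1-/- liver against WT the count of members was 2, Gpam and Lpin1, with only the groups compared in the fit, and ran from 2 to 5 with single livers left out (2 without WT A and without tRNA-Phe-1-1-/- A). DESeq2 moved the count in tRNA-Phe-2-1-/- liver from 0 to 2, Gpam and Lpin1. In tRNA-Phe-3-1-/- liver the count was 1, Gpam, with a filter at a mean of 50, quantile normalisation, TMM rescaling and DESeq2, and 0 to 1 with single livers left out (1 without tRNA-Phe-1-1-/- B, tRNA-Phe-1-1-/- C or tRNA-Phe-3-1-/- A). The mean of the lines in liver gave 0 to 1, with 0 without WT C. The contrast of tRNA-Phe-1-1-/- with tRNA-Phe-2-1-/- liver gave 2 to 5, with 3 without tRNA-Phe-1-1-/- A and 2 without tRNA-Phe-2-1-/- B. In brain, DESeq2 gave 1 member, Lpin2, in tRNA-Phe-1-1-/- against WT and against tRNA-Phe-2-1-/-, 1, Mttp, against tRNA-Phe-3-1-/-, and 2 over the 4 genotypes, and a filter at 50 also gave 1, Mttp, against tRNA-Phe-3-1-/-. The cause of these changes was not tested. Over all genes in liver, DESeq2 called 497 against 21 in tRNA-Phe-2-1-/- and 757 against 140 in tRNA-Phe-3-1-/-.

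The r of same-letter replicates ran from -0.29 to 0.24 in liver and from -0.16 to 0.49 in brain, and only between tRNA-Phe-2-1-/- brains and those of tRNA-Phe-3-1-/- mice was it over 0.1 in all 3 pairs. Brains of those lines with different letters also reached 0.26, and the letters were not read as pairs. With the letter as a replicate block, tRNA-Phe-1-1-/- liver against WT gave 5 members called in place of 4, Lpin2 being added at adjusted p = 0.0303, and 2347 genes in place of 2751. In brain 0 members were called with the block in any comparison. The block moved the genes called in tRNA-Phe-2-1-/- liver from 21 to 1 and in tRNA-Phe-3-1-/- liver from 140 to 9, with 0 members called in either. Mogat1 had the lowest counts of the members in both tissues, followed by Agpat2 in brain.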
